A study of Mus musculus with 12 samples.

Results

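CD4 single-positive (CD4SP) thymocytes of mice lacking Chrna9 were compared with those of wild-type (WT) mice through the T cell receptors they carried. The comparison used 6 of the 12 libraries of the series, chosen by their sample titles, 3 from Chrna9-/- mice and 3 from WT mice, with knockout and WT libraries of the same replicate number taken as a pair. Chrna9 encodes the alpha 9 subunit of nicotinic acetylcholine receptors, and the series title places the question in negative selection, the removal of self-reactive thymocytes. The mice were untreated, in pairs of the same sex (2 male pairs and 1 female pair). The labels do not say that same-numbered libraries are the pairs, so every count of pairs and every fit with the replicate block rests on that reading of the numbers, nor which number would be the female pair. Strain, age and the construction of the knockout allele are not given in the sources used here. Thymocytes were sorted on CD4 and CD8 alone, 1000000 CD4SP cells per sample, and the alpha and beta chain transcripts (TRA and TRB) were amplified and sequenced. A T cell receptor library holds no readout of Chrna9, so the deletion itself could not be checked.

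Each T cell receptor chain is assembled by joining a V and a J segment, with a D segment between them in the beta chain, and the bases around the join encode CDR3, the loop that lies over the bound antigen. CD4SP thymocytes have mostly been selected on MHC class II, and those whose receptors bind self too strongly are deleted or diverted to other lineages. The CD4 gate also holds invariant natural killer T (NKT) cells, whose alpha chain joins TRAV11 to TRAJ18 in a nearly fixed CDR3 and recognises lipids on CD1d, and it can hold a few mucosal-associated invariant T (MAIT) cells, whose chain joins TRAV1 to TRAJ33 and recognises vitamin B metabolites on MR1.

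The sequences below are those the invariant chain results turn on, read from the clonotype files. The 4 most-read CDR3 sequences of the invariant chain, all 45 bases long and all encoding the canonical CDR3 of this chain, differed in the third base of the fourth codon. This codon, in capitals, encodes glycine and lies where V meets J.
variant 1: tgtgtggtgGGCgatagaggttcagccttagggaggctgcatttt
variant 2: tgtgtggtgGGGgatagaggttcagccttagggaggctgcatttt
variant 3: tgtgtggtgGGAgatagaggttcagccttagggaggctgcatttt
variant 4: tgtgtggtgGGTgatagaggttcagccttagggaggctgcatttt
The next sequence shows a substitution of that residue that also recurred across libraries, with alanine in place of glycine.
alanine form: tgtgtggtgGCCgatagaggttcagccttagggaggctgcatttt
For comparison, the most-read sequence of the MAIT CDR3 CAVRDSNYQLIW is wholly in lower case, because no base lay between its V and J parts.
MAIT CDR3: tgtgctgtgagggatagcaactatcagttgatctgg
The most-read form of a beta chain CDR3 found in all 6 libraries, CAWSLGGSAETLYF of TRBV31 and TRBJ2-3, shows by contrast a stretch of 7 bases between V and J, in capitals.
beta CDR3: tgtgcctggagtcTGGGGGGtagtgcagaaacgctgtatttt

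Productive TRA reads, those of in-frame joins without a stop codon, numbered 23765 to 30831 per knockout library and 19847 to 24605 per WT library, and productive TRB reads 80040 to 104434 and 74021 to 86935. Knockout libraries were the deeper of the pair in 3 of 3 pairs for both chains, and the part of depth in the differences below was not tested. Shares are percentages of the productive reads of a chain. Segments that separate CD4SP from CD8SP cells fell on the CD4SP side in both genotypes. TRBV14 took 2.22% ± 0.105 (SD, n = 3) in the knockout and 2.25% ± 0.0821 in WT, against 7.51% to 8.19% in the 6 CD8SP libraries. TRAV16N made up 3.62% ± 0.272 and 3.56% ± 0.136, against 10.5% to 11.5%, and TRBV31, which lies in inverted orientation downstream of the beta J segments, 21.5% ± 0.499 and 21.5% ± 0.455, against 5.38% to 5.73%. The labels do not say how the mice were bred, so p-values measure the spread between these samples.

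The invariant NKT chain, defined here as a TRAV11 to TRAJ18 join with a CDR3 of 15 residues, took a larger share of alpha chain reads in the knockout library of every pair. It made up 6.37%, 7.30% and 8.49% of TRA reads in knockout libraries 1, 2 and 3 and 5.26%, 6.30% and 6.51% in WT libraries 1, 2 and 3. Knockout library 3, the shallowest of its genotype, was the highest of all 6, whereas knockout library 1 lay below WT library 3, so the groups overlapped. The exact two-sided sign-flip permutation over the 3 pairs gave p = 0.25 and the exact permutation of labels p = 0.2, where 0.25 and 0.1 are the smallest these designs allow. In these bulk libraries, more NKT cells and more receptor RNA per NKT cell cannot be told apart.

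**Figure D1:**
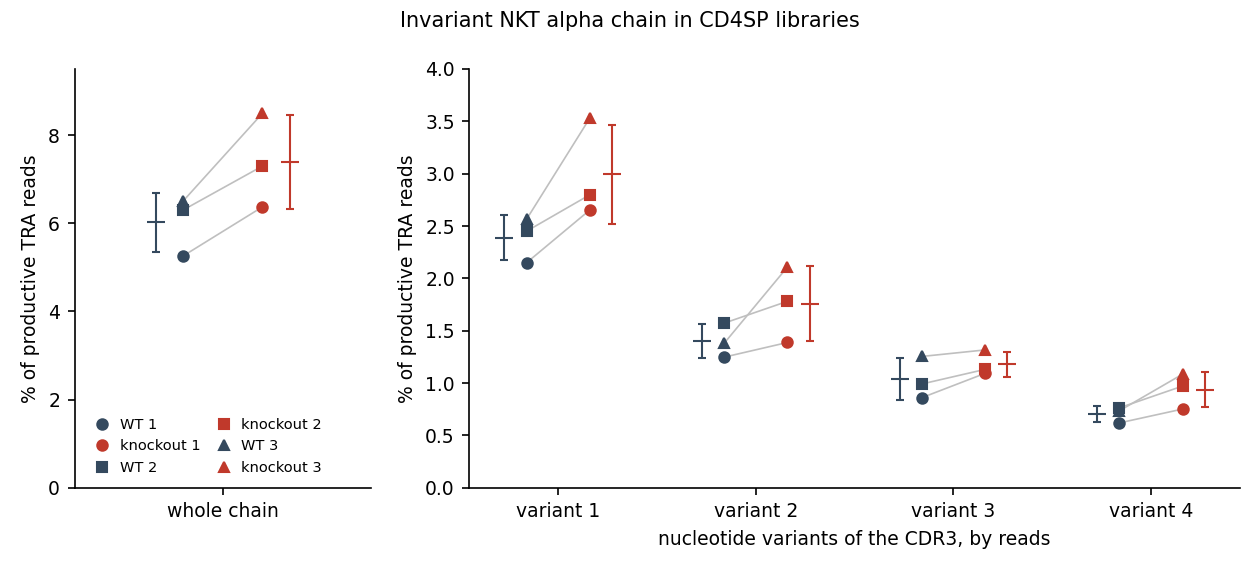
Share of productive TRA reads (%) taken by the invariant NKT alpha chain (left) and by its 4 most-read nucleotide variants (right) in the 6 CD4SP libraries. Grey lines join the knockout and WT library of the same replicate number, and bars give the mean and SD of 3 libraries; all 5 sets of lines go up from WT to knockout, and of these sets only variant 1 has groups that do not overlap.

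The higher share was spread over the glycine-codon variants rather than held by one of them. Variant 1, with the codon GGC, made up 2.65%, 2.798% and 3.53% of TRA reads in the knockout libraries and 2.15%, 2.45% and 2.56% in the WT libraries. Its groups did not overlap, and it was the only one of the 8 most-read invariant sequences (12.5%) of which this held. Variant 2 (GGG) made up 1.39%, 1.78% and 2.11% against 1.25%, 1.57% and 1.38%. Variant 3 (GGA) made up 1.09%, 1.13% and 1.32% against 0.861%, 0.992% and 1.25%. Variant 4 (GGT) made up 0.752%, 0.972% and 1.09% against 0.620%, 0.764% and 0.736%. Each of the 4 was higher in the knockout in 3 of 3 pairs, with overlapping groups for variants 2 to 4. Variant 1 supplied 40.1% of all invariant reads of the 6 libraries, variant 2 23.6%, variant 3 16.4% and variant 4 12.3%.

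The balance among the sequences of the invariant chain was alike in both genotypes. Variant 1 took 41.6%, 38.4% and 41.6% of the invariant reads of the knockout libraries and 40.9%, 38.9% and 39.4% of those of the WT libraries. The 4 glycine variants together took 92.4%, 91.6% and 94.7% of them in the knockout and 92.7%, 91.7% and 91.2% in WT. The alanine form was not higher in every pair, at 0.1200%, 0.137% and 0.109% of TRA reads in the knockout against 0.0775%, 0.175% and 0.101% in WT. The number of distinct invariant sequences was 17, 18 and 13 in the knockout libraries and 14, 15 and 23 in the WT libraries. Invariant sequences were 0.106% to 0.1202% of the distinct TRA clonotypes of a knockout library and 0.108% to 0.216% of those of a WT library. Because the same 4 sequences held most invariant reads in every library, a count of distinct sequences cannot show how frequent the chain was.

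Both segments of the invariant chain rose in the knockout, and they were the only alpha chain segments to pass. TRAV11 (RefSeq, GRCm38.p6, chromosome 14, 53519303 to 53519859) made up 7.05%, 7.90% and 9.11% of TRA reads in the knockout libraries and 5.96%, 7.06% and 7.22% in the WT libraries. TRAJ18 (chromosome 14, 54200777 to 54200842) made up 8.51%, 9.40% and 10.5% against 7.07%, 8.60% and 8.56%. Both were higher in 3 of 3 pairs, and knockout library 1 lay below WT libraries 2 and 3 for each, so the groups overlapped. The log2 fold change, knockout over WT, was 0.25 (SE 0.057) for TRAV11 and 0.23 (SE 0.053) for TRAJ18, with adjusted p = 0.00119 for each by edgeR's quasi-likelihood test. These 2 were 1.60% of the 125 segments tested.

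The 2 calls were lost under several settings. Without the replicate block the edgeR adjusted p was 0.0822 for each of them. It was 0.0565 for TRAV11 and 0.441 for TRAJ18 without WT library 1, 0.154 and 0.137 without WT library 3, and 0.229 and 0.588 without knockout library 3. DESeq2 called TRAV11 (adjusted p = 0.0290) and not TRAJ18 (0.178). Over all alternatives the edgeR or DESeq2 adjusted p ran from 0.000685 to 0.963 for TRAV11 and from 0.000681 to 0.967 for TRAJ18.

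Outside the invariant chain the same segments did not stand higher. TRAV11 joined to other partners made up 0.678%, 0.605% and 0.623% of TRA reads in the knockout libraries and 0.702%, 0.756% and 0.705% in the WT libraries. It was lower in 3 of 3 pairs without overlap, with an exact label permutation p = 0.1, the smallest possible, and 0.616 after Benjamini-Hochberg adjustment over 39 measures. Counted by clonotype, its groups overlapped, at 0.606% to 0.648% against 0.629% to 0.712%. TRAJ18 with other partners made up 2.14%, 2.10% and 2.02% against 1.81%, 2.29% and 2.05%, higher in 1 of 3 pairs. With the invariant chain left out, TRAV11 was at a log2 fold change of -0.16 and TRAJ18 at 0.05, and neither passed in edgeR. With each clonotype counted once they were at -0.13 and -0.021, but that counting takes away the reads of the invariant chain and cannot show its frequency. All reads of the invariant chain tied between TRAV11 and its near-identical copy TRAV11D, so the copy used is uncertain.

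**Figure D2:**
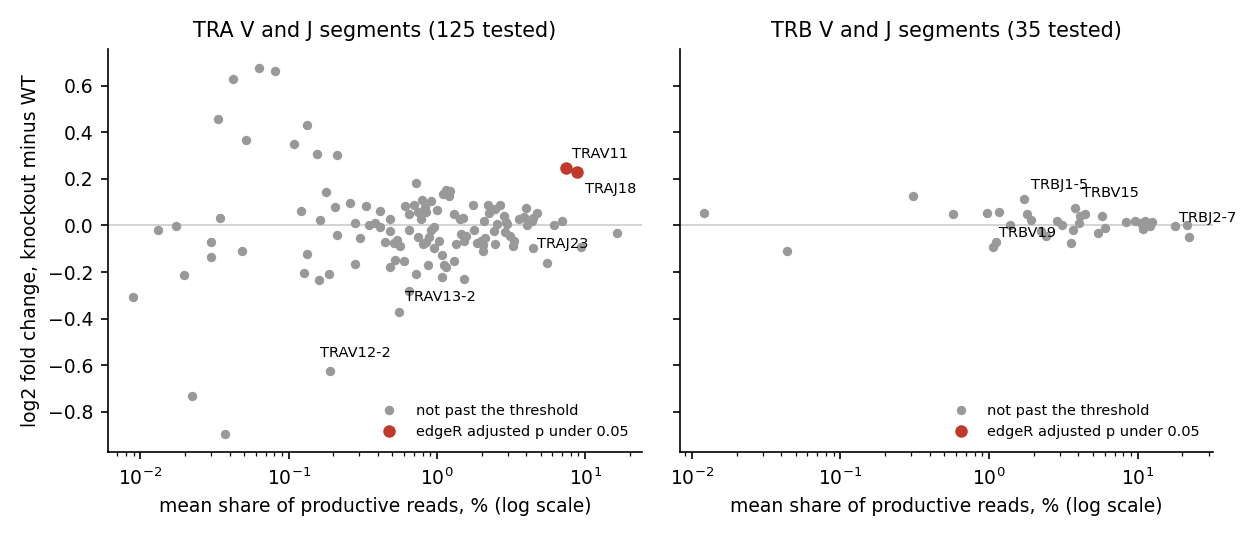
Log2 fold change (knockout over WT, edgeR) of each V and J segment against its mean share of productive reads (%, log axis), for alpha chain (left, 125 segments) and beta chain segments (right, 35). TRAV11 and TRAJ18, in red, are past the threshold at 0.25 and 0.23, and the TRB segments lie between -0.11 and 0.13.

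No other TRA segment passed in edgeR. Over all 125, an unadjusted p under 0.05 was reached by 7 segments in edgeR (5.60%) and by 7 in DESeq2. The groups of 11 segments did not overlap (8.80%), 10 of them lower in the knockout. All these shares count the invariant chain in their total, and its part in the 10 lower shares was not tested. TRAJ23 (chromosome 14, 54196081 to 54196140) had the next smallest p. It made up 5.41%, 5.41% and 4.84% of TRA reads in the knockout libraries and 5.62%, 5.97% and 5.93% in the WT libraries, a log2 fold change of -0.16 (SE 0.055, edgeR adjusted p = 0.169). Its groups did not overlap, and its adjusted p ran from 0.0984 to 0.993 over the alternatives. TRAV12-2 made up 0.159%, 0.1203% and 0.173% against 0.228%, 0.232% and 0.232%, with a log2 fold change of -0.63 (SE 0.25, edgeR adjusted p = 0.315). TRAV13-2 made up 0.545%, 0.439% and 0.471% against 0.730%, 0.508% and 0.650%, at -0.37 (SE 0.145, edgeR adjusted p = 0.315). These 3 segments were lower in the knockout in 3 of 3 pairs, with WT library 2 inside the knockout range for TRAV13-2. TRAV12-2 passed without clonotypes of 1 read (edgeR adjusted p = 0.0408) and TRAV13-2 without WT library 2 (0.0378).

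Of the 5 most used alpha segments, TRAV11 and TRAJ18 are those described above, and the other 3 did not pass. TRAV7-2, the most used of all, made up 16.6%, 15.8% and 16.5% of TRA reads in the knockout libraries and 16.2%, 16.9% and 16.95% in the WT libraries (log2 fold change -0.03, SE 0.045). TRAV7-5 made up 8.78%, 9.51% and 8.75% against 9.31%, 10.5% and 9.01%, lower in 3 of 3 pairs (-0.09, SE 0.048, edgeR adjusted p = 0.792). TRAJ31 made up 7.33%, 6.79% and 6.86% against 6.90%, 7.08% and 6.69% (0.02, SE 0.053). Many TRAV copies are near-identical, and 40.7% to 44.2% of the productive TRA reads of a CD4SP library had a second segment of equal score.

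Alpha J segments are used in an order, from the 5' end of the J cluster in early rounds of rearrangement to the 3' end in later rounds. The 3' segments TRAJ1 to TRAJ21 made up 39.4%, 40.4% and 42.3% of TRA reads in the knockout libraries and 37.9%, 39.6% and 38.4% in the WT libraries, higher in 3 of 3 pairs with overlapping groups. Of their 14 tested members 1, TRAJ18, rose, and the median log2 fold change of the list was 0.04 against -0.01 over all 125 segments. The middle segments TRAJ22 to TRAJ41 made up 46.0%, 45.5% and 44.5% against 47.1%, 46.6% and 46.7%, lower in 3 of 3 pairs without overlap, which held for 2 of the 25 segment lists (8.0%). Of the 16 middle segments tested 0 passed, and their median was -0.06. Their share counts the invariant chain in its total, and the part of that chain in the lower share was not tested. The 5' segments TRAJ42 to TRAJ61 made up 14.6%, 14.1% and 13.2% against 14.96%, 13.8% and 14.9%, lower in 2 of 3 pairs, with 0 of 13 past the threshold. Without the invariant chain the 3' segments made up 35.3%, 35.7% and 36.9% of the remaining reads in the knockout against 34.5%, 35.6% and 34.1% in WT, still higher in 3 of 3 pairs. They were also higher in 3 of 3 pairs without clonotypes of 1 read. With each clonotype counted once they were higher in 2 of 3 pairs, at 34.4%, 34.6% and 35.5% against 33.4%, 34.8% and 33.2%. Among reads of nonproductive joins, described below, they were higher in 1 of 3 pairs, at 35.0%, 36.8% and 35.4% against 35.3%, 34.8% and 36.1%.

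At the V end, 0 members of any TRAV family list passed. The TRAV6 family made up 16.5%, 15.7% and 15.9% of TRA reads in the knockout libraries and 17.1%, 16.1% and 15.9% in the WT libraries, lower in 3 of 3 pairs, with 4 of 13 tested members at a positive log2 fold change and a median of -0.08. The TRAV7 family made up 35.5%, 36.2% and 35.9% against 35.98%, 37.7% and 36.3%, also lower in 3 of 3 pairs, with a median of 0.02 over 11 members. The shares of both families count the invariant chain in their total, so a larger share of that chain lowers them. Its part in these differences was not tested. The J-proximal segments TRAV17 to TRAV21, which early rounds of rearrangement reach first, made up 2.46%, 2.35% and 2.26% against 2.68%, 2.37% and 2.81%, lower in 3 of 3 pairs. They were lower in 2 of 3 pairs without the invariant chain, at 2.63%, 2.54% and 2.46% against 2.83%, 2.52% and 3.01%, as they also were without clonotypes of 1 read. With each clonotype counted once they were at 2.672%, 2.723% and 2.776% against 2.840%, 2.779% and 2.941%, lower in 3 of 3 pairs. Their groups did not overlap under that counting, which held for 3 of 27 measures. Within that list TRAV21/DV12, which can also join delta segments, had groups that did not overlap, at 1.51%, 1.39% and 1.28% against 1.68%, 1.52% and 1.71% (log2 fold change -0.23, SE 0.102, edgeR adjusted p = 0.512). The TRAV8 family, at 1.71%, 1.78% and 1.54% against 1.705%, 1.46% and 1.46%, was higher in 3 of 3 pairs, narrowly so in pair 1.

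Among CDR3 lengths, TRA loops of 15 residues, the length of the invariant chain, rose in the knockout. They made up 16.04%, 16.5% and 17.5% of TRA reads in the knockout libraries and 14.8%, 15.5% and 15.99% in the WT libraries, without overlap and higher in 3 of 3 pairs. The log2 fold change was 0.11 (SE 0.027, edgeR adjusted p = 0.00502), and this was 1 of 13 lengths tested (7.69%). Loops of 13 residues, the commonest, made up 32.0%, 32.5% and 32.0% against 32.9%, 32.9% and 33.6%, also without overlap, with a log2 fold change of -0.04 (SE 0.016, edgeR adjusted p = 0.0827, or 0.0381 without knockout library 2). Loops of 16 residues made up 2.47%, 2.55% and 2.37% against 2.63%, 2.65% and 2.77%, and those of 18 residues 0.0746%, 0.0520% and 0.0505% against 0.0816%, 0.0975% and 0.116%, so that 4 of the 13 lengths (30.8%) had groups that did not overlap. Loops of 14 residues showed no such gap, at 27.4%, 26.8% and 26.6% against 27.6%, 26.9% and 26.3%. The shares of all lengths count the 15-residue invariant chain in their total. Its part in the lower shares of 13, 16 and 18 residues was not tested.

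The call of the 15-residue loops was lost when the invariant chain was left out. Without that chain the log2 fold change was 0.01 (edgeR adjusted p = 0.818), and with each clonotype counted once it was 0.03 (0.668). The edgeR adjusted p was 0.0709 with TMM factors, 0.0976 without WT library 1, 0.0579 without WT library 3 and 0.0902 without knockout library 3, and DESeq2 gave 0.0801. The mean TRA CDR3 length was 13.401, 13.397 and 13.418 residues in the knockout libraries against 13.383, 13.384 and 13.396 in the WT libraries, longer in 3 of 3 pairs. Without the invariant chain it was 13.292, 13.271 and 13.271 against 13.293, 13.276 and 13.284, shorter in 3 of 3 pairs.

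**Figure D3:**
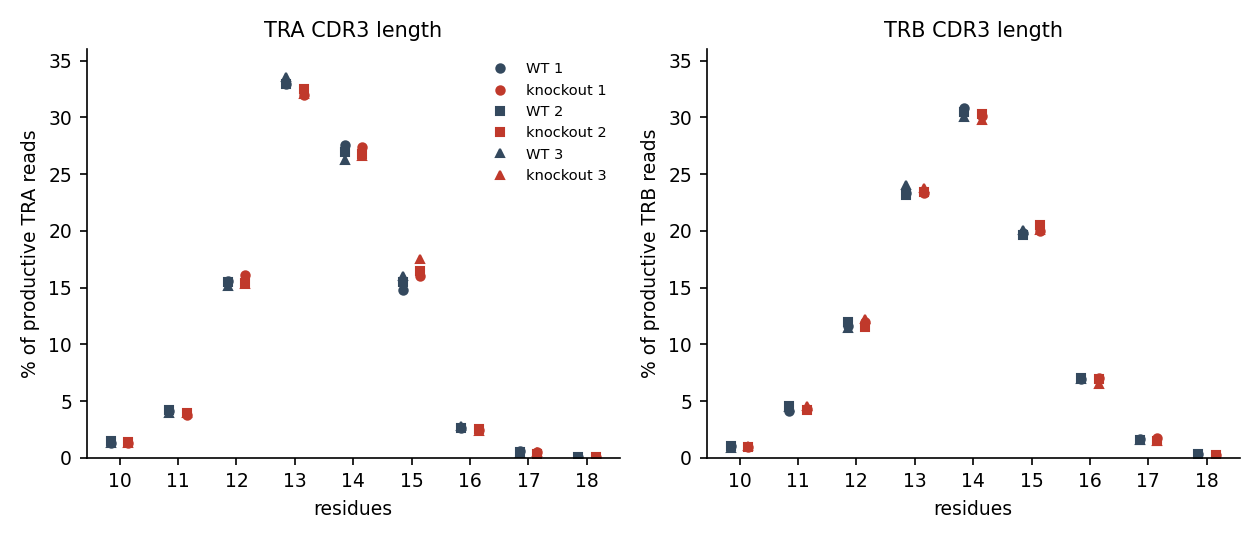
Share of productive reads (%) by CDR3 length in residues, for alpha chains (left) and beta chains (right), with 1 point per CD4SP library. TRA loops of 15 residues lie at 16.04% to 17.5% in the knockout and 14.8% to 15.99% in WT without overlap, while the TRB lengths plotted here overlap except at 18 residues.

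Beta chain segments were close to equal in both genotypes. Of 35 TRB segments 0 passed in edgeR (0%) and 0 in DESeq2, and an unadjusted p under 0.05 was reached by 1 in edgeR (2.86%) and 0 in DESeq2. The log2 fold changes ran from -0.11 to 0.13, with a median absolute value of 0.03. TRBJ2-7 (chromosome 6, 41543810 to 41543856), the most 3' of the functional beta J segments, had the smallest p. It made up 21.7%, 21.8% and 21.7% of TRB reads in the knockout libraries and 22.6%, 22.9% and 22.05% in the WT libraries. All 3 knockout values lay below all 3 WT values, as they did for 2 of the 35 segments (5.71%), the other being TRBV19 at 1.01%, 1.05% and 1.02% against 1.12%, 1.097% and 1.07%. The log2 fold change of TRBJ2-7 was -0.05 (SE 0.013, edgeR adjusted p = 0.0645). It passed in edgeR with only the 6 CD4SP libraries in the fit (adjusted p = 0.00432), without clonotypes of 1 read (0.0187), without WT library 3 (0.0333) and without knockout library 3 (0.0431). Its adjusted p reached 0.983 with DESeq2.

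The other J segments of the second beta cluster did not share that difference. TRBJ2-1 made up 10.5% ± 0.372 of TRB reads in the knockout and 10.5% ± 0.0815 in WT, and TRBJ2-3 10.8% ± 0.127 and 10.9% ± 0.176. TRBJ2-4 made up 11.3% ± 0.178 and 11.1% ± 0.3604, and TRBJ2-5 12.6% ± 0.149 and 12.5% ± 0.175 (SD, n = 3). TRBJ2-2 made up 6.02% ± 0.174 and 6.07% ± 0.103. The cluster as a whole made up 73.4%, 73.5% and 72.2% against 73.3%, 74.5% and 73.0%, with the knockout lower in 2 of 3 pairs.

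In the first beta cluster 5 of 6 J segments had a positive log2 fold change, with a median of 0.04 against 0.01 over all TRB segments, and 0 passed. TRBJ1-5 made up 1.79%, 1.71% and 1.89% in the knockout libraries and 1.59%, 1.601% and 1.801% in the WT libraries, higher in 3 of 3 pairs (0.11, SE 0.054, edgeR adjusted p = 0.918). TRBJ1-3, at 4.504%, 4.405% and 4.62% against 4.33%, 4.16% and 4.58%, was also higher in 3 of 3 pairs. TRBJ1-1 made up 8.35% ± 0.322 and 8.27% ± 0.348, TRBJ1-2 4.12% ± 0.0550 and 4.01% ± 0.256, TRBJ1-4 5.83% ± 0.205 and 5.67% ± 0.0778, and TRBJ1-6 2.36% ± 0.0510 and 2.44% ± 0.121 in knockout and WT. The TRBD2 segment, which lies just before the second cluster, was found in 48.9%, 48.5% and 49.0% of knockout reads with 1 best D hit and in 48.9%, 49.0% and 49.0% of such WT reads.

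**Figure D4:**
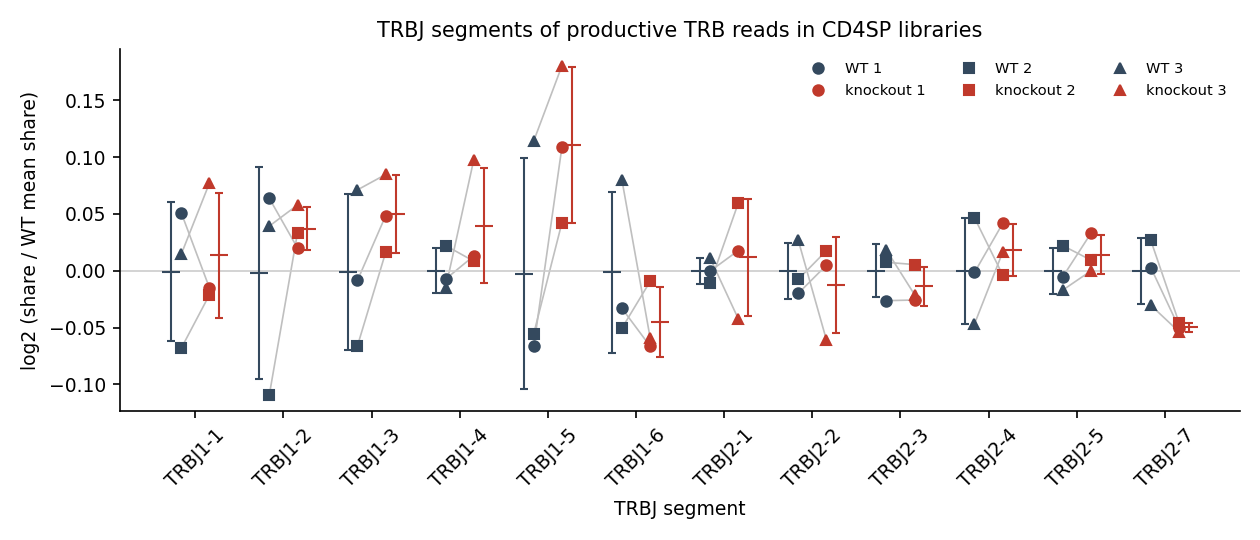
Share of each TRBJ segment in the 6 CD4SP libraries, as log2 of its share of productive TRB reads over the WT mean share. Points are libraries, grey lines join pairs, and bars give the mean and SD of 3 libraries; TRBJ2-7 is the 1 segment of the 12 whose knockout points all lie below its WT points.

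TRBV segments that bind endogenous superantigens are read as a sign of negative selection in strains that carry the matching superantigens. Of the 7 in the list 0 passed in edgeR, and 1 of 7, TRBV16, was higher in 3 of 3 pairs, at 1.22%, 1.16% and 1.17% against 1.21%, 1.11% and 1.09%. TRBV15 made up 4.09%, 3.66% and 3.98% against 3.66%, 3.68% and 3.78% (log2 fold change 0.08, SE 0.052), and TRBV26 3.31%, 3.38% and 3.71% against 3.72%, 3.64% and 3.58% (-0.08, SE 0.058). TRBV29 made up 5.37% ± 0.264 and 5.505% ± 0.322, TRBV17 1.93% ± 0.0177 and 1.904% ± 0.0911, TRBV12-1 3.08% ± 0.138 and 3.09% ± 0.185, and TRBV12-2 1.39% ± 0.139 and 1.39% ± 0.0789 in knockout and WT. The list together made up 20.5%, 20.2% and 20.3% against 20.7%, 20.2% and 20.3%, higher in 1 of 3 pairs. With each clonotype counted once it was at 23.3%, 23.1% and 22.9% against 23.2%, 22.9% and 22.8%. That was higher in 3 of 3 pairs with overlapping groups (exact label permutation p = 0.6). Among nonproductive joins, described below, it was higher in 3 of 3 pairs by reads and in 2 of 3 by clonotype, with overlapping groups. The strain is not given, so which of these superantigens the mice carried is not known. The list holds only these 7 segments, so its result does not cover others such as TRBV19, which was lower in 3 of 3 pairs.

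The beta partners of the invariant NKT chain, TRBV13-2, TRBV29 and TRBV1, were not higher as a group. TRBV13-2, the main partner, made up 4.01%, 4.12% and 4.08% of TRB reads in the knockout libraries and 4.0955%, 3.83% and 4.19% in the WT libraries. TRBV1 made up 1.81%, 1.89% and 1.79% against 1.95%, 1.69% and 1.67%. The partners together made up 11.02%, 11.7% and 11.1% against 11.8%, 10.7% and 11.4%, higher in 1 of 3 pairs, with 0 of 3 past the threshold. TRBV13-1 made up 12.1% ± 0.149 and 12.1% ± 0.527 and TRBV13-3 9.62% ± 0.152 and 9.4997% ± 0.0404. The most used V segments, TRBV31 and TRBV5, also overlapped, TRBV5 at 17.7% ± 0.352 against 17.7% ± 0.752.

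Nonproductive joins, those out of frame or with a stop codon, encode no receptor chain and show the segments a cell joined on an allele that selection does not read through that chain. They made up 7.39%, 7.24% and 7.73% of TRA reads in the knockout libraries and 7.67%, 7.46% and 7.73% in the WT libraries, and 2.22%, 1.93% and 2.21% against 2.19%, 2.33% and 2.06% of TRB reads. In 11 such shares, listed after earlier results were seen, 2 had groups that did not overlap (18.2%). TRBJ2-7 was lower here too, at 23.8%, 23.3% and 20.8% of nonproductive TRB reads in the knockout and 24.7%, 24.3% and 24.2% in WT. With each nonproductive clonotype counted once it made up 23.1%, 22.3% and 22.3% against 24.2%, 25.4% and 23.8%, again without overlap (exact label permutation p = 0.1, the smallest possible, for both weightings). These values rest on 376 to 562 TRBJ2-7 reads per library.

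TRAV11 was higher among nonproductive joins, at 3.54%, 3.38% and 3.11% of nonproductive TRA reads in the knockout libraries against 3.04%, 2.22% and 2.77% in the WT libraries. The groups did not overlap, with an exact label permutation p = 0.1, from 44 to 87 reads per library. Without joins to TRAJ18, a share derived from it and not counted among the 11, it was at 3.13%, 3.29% and 2.91% against 2.85%, 2.17% and 2.71%, also without overlap. Counted by clonotype the groups overlapped, at 2.94%, 2.57% and 2.36% against 2.70%, 2.01% and 2.41%, and the exact p was 0.5. Nonproductive TRAJ18 joins were at 3.05%, 1.63% and 2.66% against 2.06%, 2.22% and 2.22%, and nonproductive TRAJ23 joins at 7.08%, 5.71% and 4.42% against 6.48%, 6.001% and 6.67%, both with overlapping groups.

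**Figure D5:**
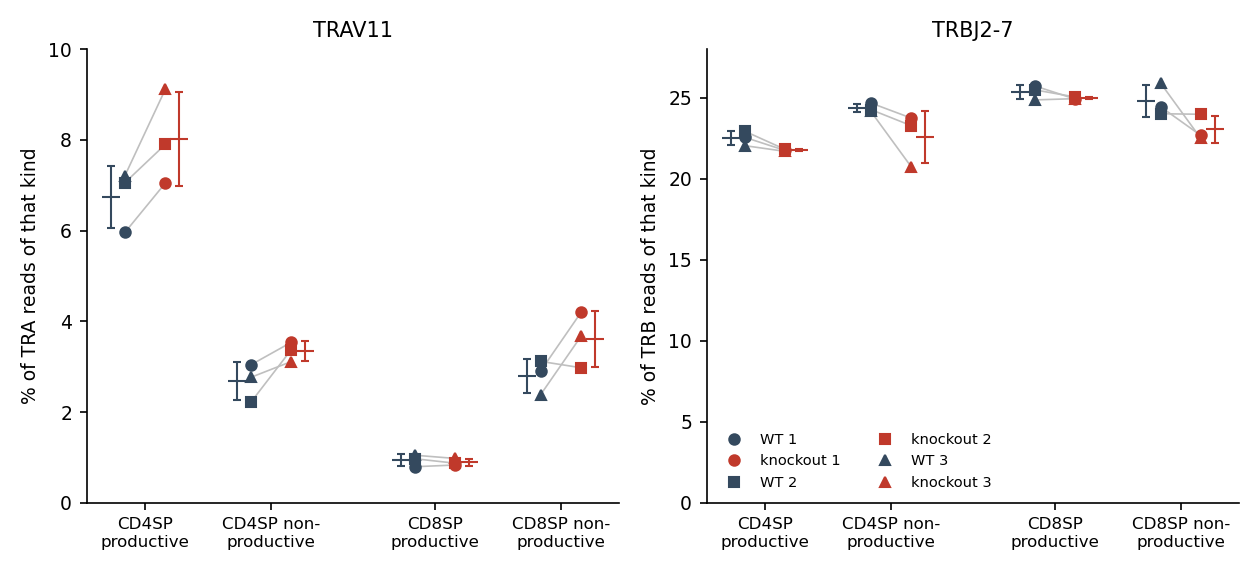
Share of TRAV11 (left, % of TRA reads) and TRBJ2-7 (right, % of TRB reads) among productive and nonproductive joins, in CD4SP and CD8SP libraries. Grey lines join the knockout and WT library of a pair, and bars give the mean and SD of 3 libraries; the groups of nonproductive CD4SP joins do not overlap for either segment, TRAV11 lying at 3.11% to 3.54% in the knockout and 2.22% to 3.04% in WT.

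No single combination of V and J segments passed. Of 959 TRAV and TRAJ pairs 0 passed in edgeR (0%) and 0 in DESeq2, and an unadjusted p under 0.05 was reached by 40 (4.17%) and 20. The pair TRAV11 and TRAJ18, with joins of all lengths, had the smallest p (log2 fold change 0.29, SE 0.083, edgeR adjusted p = 0.409), and passed without the filter on low features (0.0331) and with only the 6 CD4SP libraries (0.0495). TRAV8D-1 with TRAJ22 made up 0.0259%, 0.0260% and 0.0337% against 0.00816%, 0% and 0.00504%, and passed without clonotypes of 1 read (edgeR adjusted p = 0.0481). TRAV7-5 with TRAJ39 made up 0.191%, 0.270% and 0.168% against 0.347%, 0.362% and 0.277%, lower in 3 of 3 pairs without overlap, which was the case for 97 of the 959 pairs (10.1%) in one direction or the other. TRAV3-3 with TRAJ22 and TRAV16N with TRAJ47 were the others among the 5 of smallest p, both lower in 3 of 3 pairs (edgeR adjusted p = 0.688 and 0.709). Of 249 TRBV and TRBJ pairs 0 passed in edgeR (0%) and 0 in DESeq2, and an unadjusted p under 0.05 was reached by 5 (2.01%) in either tool. The 5 in edgeR were TRBV14 with TRBJ1-5, TRBV16 with TRBJ2-2, TRBV19 with TRBJ2-2, TRBV15 with TRBJ1-1 and TRBV29 with TRBJ1-5.

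Public CDR3s, here amino acid sequences found in at least 6 of the 12 libraries, gave the same answer. Of 520 public TRA sequences 0 passed in edgeR (0%), and of 617 public TRB sequences also 0 (0%), and DESeq2 passed 0 of either. An unadjusted p under 0.05 was reached by 15 TRA (2.88%) and 26 TRB sequences (4.21%) in edgeR and by 14 and 32 in DESeq2. The canonical invariant CDR3 is encoded by the 4 variants printed above and by rarer sequences. It made up 5.96%, 6.83% and 8.12% of TRA reads in the knockout libraries and 4.95%, 5.88% and 6.01% in the WT libraries (log2 fold change 0.31, SE 0.125, edgeR adjusted p = 1). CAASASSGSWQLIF, the next most abundant, was at 0.474%, 0.569% and 0.459% against 0.591%, 0.557% and 0.584%, and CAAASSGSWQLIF at 0.344%, 0.471% and 0.341% against 0.453%, 0.4105% and 0.413%. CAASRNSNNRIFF was at 0.279%, 0.254% and 0.181% against 0.298%, 0.362% and 0.282%. Of these 3, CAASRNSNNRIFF was the one lower in 3 of 3 pairs and without overlap, where groups did not overlap, in either direction, for 35 of the public TRA sequences (6.73%) and 55 of the public TRB sequences (8.91%).

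The public TRA sequences of smallest p were rare. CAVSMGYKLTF was at 0.00324%, 0.00975% and 0% against 0.0612%, 0.0325% and 0.0151%, lower in 3 of 3 pairs without overlap (edgeR adjusted p = 0.693). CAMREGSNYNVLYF went the other way, at 0.0195%, 0.0488% and 0.0631% against 0.00408%, 0% and 0.0252%, higher in 3 of 3 pairs (edgeR adjusted p = 0.789). Public TRB sequences were rarer still. The most abundant, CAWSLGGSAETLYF, whose sequence is printed above, took 26, 41 and 39 reads in the knockout libraries and 30, 35 and 24 in the WT libraries. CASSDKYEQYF, the TRB sequence of smallest p, was at 0%, 0% and 0.00125% against 0.0130%, 0.0127% and 0.0162% (edgeR adjusted p = 1). It reached at most 0.00832% in the CD8SP libraries, so it cleared the low-count filter through the WT CD4SP libraries alone. Its rank therefore cannot be taken as support for a difference.

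The MAIT join and reads with a delta V or J segment had a lower share in the knockout library of every pair. The join of TRAV1 and TRAJ33 was read 7, 4 and 3 times in the knockout libraries and 6, 7 and 8 times in the WT libraries, or 0.0227%, 0.0130% and 0.0126% against 0.0245%, 0.0284% and 0.0403% of TRA reads. The groups did not overlap, which was the case for 4 of 39 measures (10.3%), but the exact 95% binomial intervals did, from 0.00260% to 0.0369% in knockout library 3 and from 0.0174% to 0.0794% in WT library 3. With each clonotype counted once the join was higher in the knockout in 2 of 3 pairs, at 0.0202%, 0.0267% and 0.0164% against 0.0155%, 0.0165% and 0.04698%. The MAIT CDR3 printed above, in that join, had 5, 0 and 2 reads against 5, 6 and 3. The count of 0 of 30767 reads in knockout library 2 allows a share of up to 0.00975% by the limit of 3 counts, and its exact 95% binomial interval reaches 0.01199%. Over all V and J assignments the same CDR3 had 12, 2 and 3 reads in the knockout against 8, 10 and 6 in WT. Knockout library 1, at 0.0389%, then lay above WT library 1, at 0.0326%. TRAV1 as a whole made up 0.639%, 0.494% and 0.497% against 0.640%, 0.630% and 0.459%, and TRAJ33 1.97%, 2.04% and 1.99% against 2.23%, 1.9996% and 2.13%, with overlapping groups in both.

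Reads with a delta V or J segment made up 0.892%, 0.798% and 0.877% of TRA and TRD reads in the knockout libraries and 1.04%, 1.02% and 1.04% in the WT libraries. The groups did not overlap, and the exact label permutation gave p = 0.1, or 0.616 after adjustment over the 39 measures. In the CD8SP libraries these reads were at 0.686% to 0.839% in the knockout and 0.861% to 1.16% in WT, also without overlap. A delta V segment joined to an alpha J segment is counted among them, so they do not by themselves mark another lineage.

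Of 39 measures per library, 14 moved the same way in each of the 3 pairs, 7 of them up and 7 down in the knockout. None passed an exact permutation test, where the lowest adjusted p was 0.696 over sign flips and 0.616 over labels, and the design allows no raw p below 0.25 and 0.1. By the methods' t-test, paired, an unadjusted p under 0.05 was reached by 5 measures, and 0 passed after Benjamini-Hochberg adjustment. Without clonotypes of 1 read 1 measure, the net charge of the TRB CDR3, passed that test (adjusted p = 0.0212 over 27 measures), at -0.758, -0.776 and -0.774 in the knockout against -0.770, -0.787 and -0.784 in WT, higher in 3 of 3 pairs, and its exact sign-flip permutation p was 0.25. TRA diversity by the inverse Simpson index, which weighs large clonotypes, was 865, 710 and 483 in the knockout libraries and 1224, 906 and 860.2 in the WT libraries. Without the invariant chain the order turned, to 10751, 10512 and 9531 against 10353, 9130 and 8680, higher in the knockout in 3 of 3 pairs. At an equal depth of 19847 TRA reads the knockout libraries held 11479, 11534 and 10965 distinct clonotypes and the WT libraries 11382, 10720 and 10642. At 74021 TRB reads they held 43657, 44025 and 41388 against 42752, 40843 and 41277. Distinct clonotypes of both chains were more in the knockout in 3 of 3 pairs, with overlapping groups.

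The chemistry of the loops differed little. Self-reactive receptors are often hydrophobic at CDR3 residues 6 and 7. In TRB their mean hydropathy was -1.154, -1.174 and -1.177 in the knockout libraries and -1.139, -1.156 and -1.170 in the WT libraries, less hydrophobic in 3 of 3 pairs with overlapping groups. In TRA it was -1.381, -1.411 and -1.405 against -1.395, -1.403 and -1.413, higher in 2 of 3 pairs. Without the invariant chain, TRA hydropathy was -1.308, -1.329 and -1.308 against -1.336, -1.333 and -1.341, higher in 3 of 3 pairs without overlap. TRB loops had a net charge of -0.743, -0.755 and -0.753 against -0.754, -0.764 and -0.759, less negative in 3 of 3 pairs. TRA joins without inserted bases made up 37.1%, 38.1% and 37.2% against 36.9%, 38.1% and 37.6%, and a cysteine near the middle of the TRB loop was found in 0.0900%, 0.132% and 0.0775% against 0.114%, 0.131% and 0.0770%.

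Knockout libraries shared slightly more receptors with each other than WT libraries did, with sharing across genotypes in between. At equal depth and without the invariant chain, 2 knockout libraries shared 14.7% to 15.1% of their TRA clonotypes (same V, J and amino acid CDR3), 2 WT libraries 14.3% to 14.8%, and a knockout and a WT library of different pairs 14.5% to 14.97%. For TRB these ranges were 8.87% to 9.05%, 8.58% to 8.74% and 8.72% to 8.96%. The ranges within genotypes overlapped for TRA and not for TRB. A knockout and a WT library of the same number shared 14.2% to 15.1% for TRA and 8.76% to 9.01% for TRB, ranges that overlap those of different pairs. The Morisita-Horn index, a similarity of the 2 sets of clonotypes that weighs them by their reads, was 0.539 to 0.554 within the knockout and 0.5001 to 0.521 within WT for TRA, and 0.192 to 0.199 and 0.172 to 0.181 for TRB. Each range within a genotype holds 3 library pairs that reuse the same 3 libraries, so no test was made.

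In CD8SP libraries of the same mice the invariant chain was near absent, at 0.0495% to 0.0737% of TRA reads in the knockout and 0.0531% to 0.0897% in WT, and TRAV11 made up 0.832%, 0.873% and 0.977% against 0.795%, 0.971% and 1.05% in WT. A test of whether the genotype effect differed between CD4SP and CD8SP called 0 of 125 TRA segments, 0 of 35 TRB segments, 0 of 959 TRAV and TRAJ pairs and 0 of 249 TRBV and TRBJ pairs in edgeR (0% each), with 2, 0, 43 and 9 at an unadjusted p under 0.05. The log2 fold change of TRAV11 was larger in CD4SP than in CD8SP by 0.32 (SE 0.079), with an edgeR adjusted p = 0.256 for that difference. TRBJ2-7 made up 24.9%, 25.1% and 24.9% of productive TRB reads in knockout CD8SP libraries against 25.7%, 25.5% and 24.9% in WT, lower in 2 of 3 pairs, and the difference between the effects was -0.03 (SE 0.014, edgeR adjusted p = 0.825). Among nonproductive CD8SP joins TRBJ2-7 was at 22.7%, 23.99% and 22.5% against 24.5%, 24.0% and 25.9%, lower in 3 of 3 pairs, and TRAV11 at 4.196%, 2.98% and 3.67% against 2.91%, 3.12% and 2.38%, higher in 2 of 3 pairs. Counted by clonotype, that TRAV11 share was higher in 3 of 3 CD8SP pairs without overlap, at 3.02%, 2.61% and 2.88% against 2.098%, 2.36% and 1.899%. TRAJ23, at 5.27%, 4.95% and 5.37% against 5.59%, 5.13% and 5.70%, was the lower in each of 3 CD8SP pairs as well. These libraries come from the same 6 mice, so they are not independent of the CD4SP libraries.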

How the data were processed

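Each library had a table of TRA and TRD clonotypes and 1 of TRB clonotypes, assembled with MiXCR per the labels' series text. The submitters' processing notes name mm10 as build, and the sources used here give no MiXCR version. Per the file headers, the deposited tables give read counts for each clonotype, without molecule counts, so intervals cover counting error only. The deposited fraction of each clonotype was used only to check the counts. Productive clonotypes were kept, and segments were taken from the best hit without its allele. Of 24 files, both chains of all 12 libraries were read.

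Reads were summed per segment, V and J pair, CDR3 length and public CDR3, and tested with the quasi-likelihood test of edgeR 4.0.16 (R 4.3.3) on all 12 libraries in 4 groups, with the replicate number as a block, the productive reads of the chain as library size, filterByExpr, and Benjamini-Hochberg adjustment at 0.05 over each table. This fit treats both libraries of a mouse as independent. The difference between cell types had the mouse as a block. DESeq2 1.42.0 was an alternative. A panel of 39 measures was compared by exact two-sided permutation, and shared clonotypes were counted at 18555 TRA and 74021 TRB reads. Other steps ran in Python 3.11.15. The edgeR fit with the replicate block was checked on simulated counts of independent libraries, with changes larger than those of TRAV11 and TRAJ18. The other tests were not simulated.

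The block follows the paired test of the series text. Same-numbered libraries did not deviate together: the correlation of their deviations from the group means was 0.30, -0.19 and -0.12 over 83 TRA segments and -0.17, 0.01 and 0.18 over 31 TRB segments. Members, lists and alternatives were chosen with earlier results of these data known. Named in the text are features past the threshold (at most 10 per direction), the 5 of smallest p in tables of segments and pairs, all TRBJ segments, the superantigen, TRBV13 and NKT partner lists, the invariant and MAIT segments, and the 5 most abundant segments or public CDR3s. Some of the rarer ones are given by count. Further segments, lengths, families and the nonproductive shares were chosen after their values were seen.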

Additional observations from a re-analysis of the deposited data

Results flagged for a closer look

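For 2 of the 39 measures every CD4SP pair went the opposite way to every CD8SP pair of the same mice. The mean TRA CDR3 length was 0.0174 residues longer in knockout than in WT CD4SP and 0.0222 residues shorter in CD8SP (knockout minus WT -0.0222), a difference of 0.0396 residues between the effects. The net charge of the TRB CDR3 was higher by 0.00850 in knockout CD4SP and at -0.0115 in CD8SP, a difference of 0.0200. For each difference the exact two-sided sign-flip permutation over 3 pairs gave p = 0.25, the smallest possible. Without the invariant chain the CD4SP difference in mean TRA length was -0.00645 residues.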

How the results depend on the processing

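Counts of calls moved as follows. TRA segments, 2 in the reported fit, gave 1 call with DESeq2, 0 without the replicate block, 0 with each clonotype counted once, 0 without the invariant chain, 0 without tied best hits, and 0 to 3 when 1 library was left out. TRB segments, 0 in the reported fit, gave 1 (TRBJ2-7) without clonotypes of 1 read, 1 with only the 6 CD4SP libraries, and 0 to 1 when 1 library was left out. The difference in effect between CD4SP and CD8SP gave 0 to 2 TRB segments when 1 mouse was left out, the 2 being TRBV4 and TRBV16 without WT mouse 2. TRAV and TRAJ pairs gave 1 call without the low-count filter, 1 without clonotypes of 1 read and 1 with only the 6 CD4SP libraries. TRA lengths, 1 in the reported fit, gave 0 with TMM factors, 0 with DESeq2, 0 with each clonotype counted once, 0 without the invariant chain, and 0 to 2 when 1 library was left out. Public TRA CDR3s gave 1 call with only the 6 CD4SP libraries (the canonical invariant CDR3) and 0 to 1 when 1 library was left out (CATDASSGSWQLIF, without knockout library 3). Measures that went one way in every pair were 14 of 39, against 9 of 27 with each clonotype counted once, 7 of 27 without clonotypes of 1 read, 8 of 17 without the invariant chain, and 20 to 25 of 39 when 1 pair was left out. Without the replicate block 4 of 39 had groups that did not overlap, and the methods' t-test gave 5 at an unadjusted p under 0.05. Leaving out the replicate block changed no other call than those of TRAV11 and TRAJ18.

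Directions turned, as log2 fold changes, in the following cases. With each clonotype counted once they did so for TRAJ18 (-0.021), TRAV11 (-0.13), the TRAV11 TRAJ18 pair (-0.20), TRBV13-1 (0.00098), TRBV14 (0.0041), TRA loops of 11 residues (0.0068), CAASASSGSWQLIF (0.0043) and 1 further public TRA CDR3 (-0.098), which was also at -0.010 without clonotypes of 1 read and at -0.11 to 0.15 when 1 library was left out. Without the invariant chain it was TRAV11 (-0.16). With DESeq2 it was TRA loops of 13 residues (0.0039), TRB loops of 12 (-0.0041) and 15 residues (-0.013), TRBV12-1 (-0.0094) and TRBV12-2 (-0.011). With TMM factors it was TRBV12-1 (-0.00052) and TRBV12-2 (-0.0016), without the replicate block TRBV12-1 (-5.5e-06) and with only the 6 CD4SP libraries TRBV12-2 (-0.0019). Without clonotypes of 1 read it was TRBV12-1 (-0.0099), TRBV12-2 (-0.016), TRBV13-2 (-0.0016), TRBV5 (0.0092) and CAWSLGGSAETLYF (-0.023). Leaving out 1 library gave ranges across 0 for TRAJ31 (-0.011 to 0.059), TRAV1 (-0.18 to 0.023), TRAV16N (-0.030 to 0.077), TRBJ1-1 (-0.0050 to 0.048), TRBJ1-2 (-0.0029 to 0.075), TRBJ1-6 (-0.077 to 0.0091), TRBJ2-1 (-0.016 to 0.045), TRBJ2-2 (-0.033 to 0.019), TRBJ2-5 (-0.0014 to 0.033), TRBV1 (-0.011 to 0.11), TRBV12-1 (-0.061 to 0.047), TRBV12-2 (-0.097 to 0.050), TRBV13-1 (-0.033 to 0.017), TRBV13-2 (-0.051 to 0.068), TRBV14 (-0.046 to 0.013), TRBV16 (-0.0050 to 0.12), TRBV17 (-0.021 to 0.056), TRBV29 (-0.093 to 0.012), TRBV31 (-0.0089 to 0.0071), TRBV5 (-0.026 to 0.032), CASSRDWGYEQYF (-0.23 to 0.40) and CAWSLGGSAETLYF (-0.35 to 0.42). Of all these, TRAV11 and TRAJ18 are the ones the reported fit called, and their turns come with settings that take away the reads or the chain that the value counts. For the others the cause was not tested. Over 80 named features, 986 alternative values kept their direction and their side of the threshold, 18 lost the call, 11 gained one and 68 turned. With 3 libraries per group, features of few reads could not show small differences at this depth.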
